A study of Mus musculus with 11 samples.

Results

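The 56 genes described here are the mouse translation initiation factor genes, taken as every gene whose single annotated symbol is Eif followed by a digit, of 20352 genes measured. They were represented by 741 of 211507 probesets, a probeset being a small group of array probes read as 1 value. By symbol, 44 of the genes belong to the numbered factor classes eIF1 to eIF6, a few of which, such as Eif1ad, Eif4a3 and the eIF5A genes, mainly do other work. The other 12 are 4 kinases of eIF2, 4 proteins that bind eIF4E and 4 Argonautes under their older Eif2c names. Each gene level was the median over its probesets on a log2 scale, so that a difference of 1 is a doubling. The rule for the genes uses symbols and no measured value.

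Expression had been measured on 11 whole-transcript arrays of mouse tissue. Of these, 5 held keratoacanthoma, a tumour of squamous keratinocytes of the skin, and 6 held normal skin. All tumours and normal skins 1 and 2 came from double transgenic mice that carried both K14-Cre and Zmiz1. Normal skins 3 and 4 came from mice with K14-Cre alone, and normal skins 5 and 6 from mice with the Zmiz1 transgene alone. K14-Cre expresses Cre recombinase from the promoter of keratin 14, which is active in basal keratinocytes, whereas each array read a whole piece of tissue. No label gives age, strain or animal. Pieces may share an animal, and p-values measure only the spread between arrays.

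The arrays also differed in markers of other cell types. All 18 skeletal muscle markers were lower in the tumours (mean level 5.65 to 7.08, against 10.1 to 11.4 in normal skin), as were 8 of 10 fat markers (5.91 to 6.86 against 7.42 to 8.58) and 4 of 9 fibroblast markers (7.16 to 8.26 against 8.42 to 9.18). Of 11 keratinocyte markers, 6 were higher in the tumours and none was lower (10.1 to 10.2 against 9.07 to 9.72), and all 9 measured mitosis markers were higher (7.71 to 7.92 against 5.70 to 7.33). Of 10 white blood cell markers, 3 were higher and 2 lower (7.40 to 8.17 against 6.56 to 7.17). Their log2 differences had a median of -0.0041 and a highest of 4.26. Among the 3 higher, Cxcr2 rose by 3.69, and the 2 lower were Cd3g (-1.02) and Csf1r (-0.74). Hair follicle markers were high on tumour 4 and normal skins 1 and 3, with levels of 9.08, 10.02 and 9.75 against 5.88 to 6.77 on the other 8 arrays. In whole tissue, fewer cells of a type and less RNA per cell cannot be told apart, and the part of these markers in the results on initiation factors was not tested. No log2 value on these arrays is a true 0.

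Translation initiation brings a ribosome with its initiator tRNA to the start codon of an mRNA. In the eukaryotic pathway eIF4F binds the cap at the 5′ end, with eIF4E as cap binder, eIF4G as scaffold and eIF4A as RNA helicase, while eIF2 carries the initiator tRNA to the small ribosomal subunit, where eIF1, eIF1A, eIF3 and eIF5 assemble. eIF2B reloads eIF2 with GTP, and stress kinases that phosphorylate the alpha subunit of eIF2 block this step, whereas 4E-BP proteins hold eIF4E away from eIF4G until mTORC1 phosphorylates them. These are controls on protein activity, and the arrays read only mRNA.

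Most genes of the numbered factor classes were higher in the tumours. Of the 56 genes, 30 (53.6%) were higher in keratoacanthoma at a limma adjusted p below 0.05, 2 (3.57%) were lower and 24 were not called, where 14.5% of all 20352 genes were called higher and 10.8% lower. The median log2 difference over the 56 was 0.49, against -0.04 over all genes, and 45 of 56 differences were above 0. In 24 genes (42.9%) all 5 tumours lay above all 6 skins and in 1 gene all tumours lay below, against 9.66% and 6.31% of all genes. Without the kinases, Argonautes and eIF4E-binding proteins, 27 of the 44 were higher and 1 lower.

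**Figure D1:**
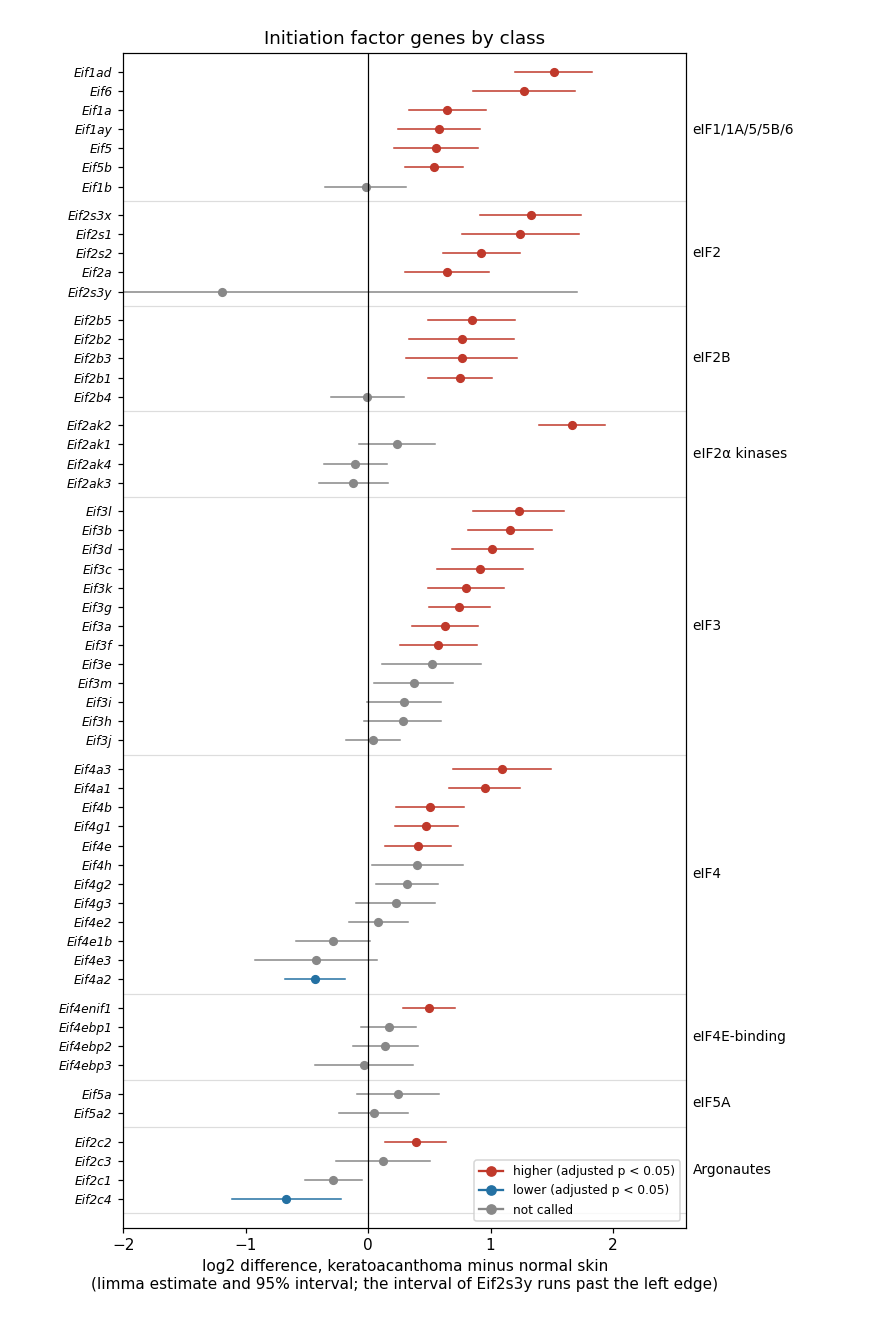
Log2 difference between keratoacanthoma (5 arrays) and normal skin (6 arrays) for each of the 56 genes, grouped by factor class, with the limma estimate as a point and its 95% interval as a line. Red points (30) passed the threshold upwards, blue points (2) downwards and grey points (24) did not pass. All classes but the eIF2alpha kinases and the Argonautes (2 of 4 points each) hold most of their points to the right of 0.

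As a set these genes were highly expressed. Their mean levels had a median percentile of 90.2 among all genes, and 39 of the 56 lay in the top 25%. In that top 25% of levels 34.4% of all genes were called higher and 10.6% lower, and 25 of the 39 initiation factor genes (64.1%) were called higher and 1 lower. Of the 17 at lower levels, 5 (29.4%) were higher and 1 was lower, against 7.93% and 10.9% of all genes at those levels. A second normalization that forced gene levels on all arrays to 1 distribution lowered the median of the 56 from 0.49 to 0.23, with 21 genes higher and 1 lower. Over all genes it gave 2408 higher and 1973 lower, against 2959 and 2200 before it. Among the initiation factor genes 10 calls were lost. The calls lost were those of Eif1a, Eif5, Eif5b, Eif2a, Eif3f, Eif4g1, Eif4b, Eif4e and Eif2c2 in the higher direction and Eif2c4 in the lower.

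**Figure D2:**
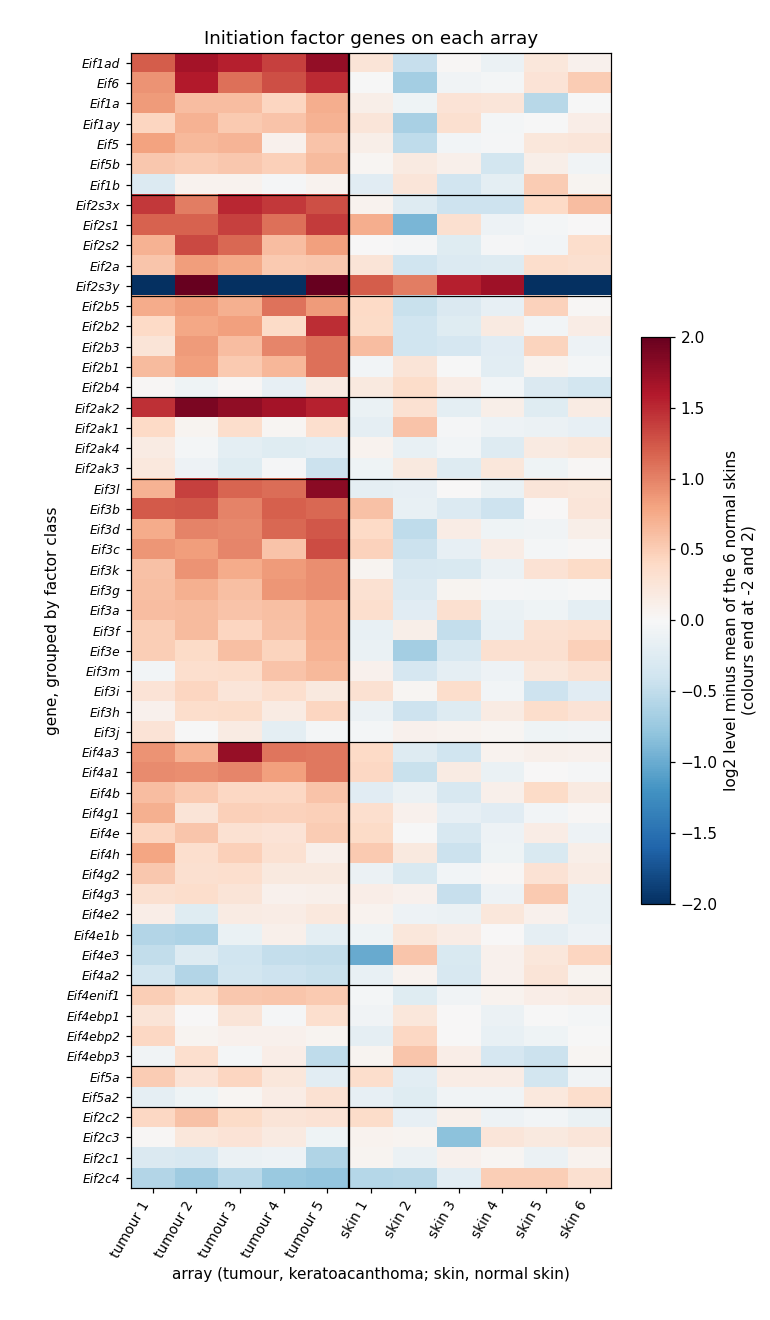
Log2 level of each of the 56 genes (rows, grouped by factor class) on each array (columns) minus the mean of the 6 normal skins, with red above and blue below that mean. The tumour columns are red through most of the eIF1, eIF2, eIF2B, eIF3 and eIF4 rows on all 5 arrays, while Eif2s3y alternates between extremes within both groups.

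eIF2 itself, the carrier of initiator tRNA, had all of its autosomal and X-linked subunits higher. Of the 5 genes in this class 4 were higher, none was lower, and the class median was 0.92. Eif2s2, which encodes the beta subunit, read 8.85, 9.47, 9.29, 8.77 and 8.97 in tumours 1 to 5, and in normal skin it had a lowest of 7.90, a median of 8.12 and a highest of 8.50. All tumours were above all skins, by 0.92 (SE 0.15, limma adjusted p = 0.000557). Eif2s1, encoding the alpha subunit that the stress kinases phosphorylate, was higher by 1.24 (SE 0.22, limma adjusted p = 0.00122), from 7.82 ± 0.54 (SD, n = 6) in skin to 9.06 ± 0.13 (SD, n = 5) in tumours. Eif2a, which is not the gene of the alpha subunit but of a separate tRNA-binding factor, was higher by 0.64 (SE 0.16, limma adjusted p = 0.00934).

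The gamma subunit of eIF2 has an X-linked gene, Eif2s3x, and a Y-linked copy, Eif2s3y. Eif2s3x measured 10.18, 9.79, 10.28, 10.18 and 10.05 in tumours 1 to 5 and had a lowest of 8.36, a median of 8.68 and a highest of 9.39 in normal skin. Every tumour exceeded every skin, and the difference was 1.33 (SE 0.19, limma adjusted p = 0.000306). Eif2s3y measured 2.75, 8.41, 2.19, 2.49 and 8.24 in the tumours and 7.22, 7.02, 7.55, 7.70, 3.50 and 3.04 in skins 1 to 6. It was therefore high in tumours 2 and 5 and in skins 1 to 4, and low on the other 5 arrays, with no difference called (log2 -1.19, 95% interval -4.09 to 1.70, limma adjusted p = 0.56). Xist, the RNA of the inactive X chromosome, ran the opposite way, at 9.66, 4.51, 9.95, 9.49 and 4.24 in the tumours and 4.69, 4.73, 4.47, 4.29, 9.95 and 9.57 in skins 1 to 6. The arrays high in Xist were those low in Eif2s3y in both groups, and the labels give no sex. With the Xist level as a covariate, an alternative chosen after these values were seen, Eif2s3x remained higher by 1.195 (limma adjusted p = 7.91e-05), and 30 genes were called higher and 2 lower as before. Over all genes 2801 were then called higher and 2089 lower.

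**Figure D3:**
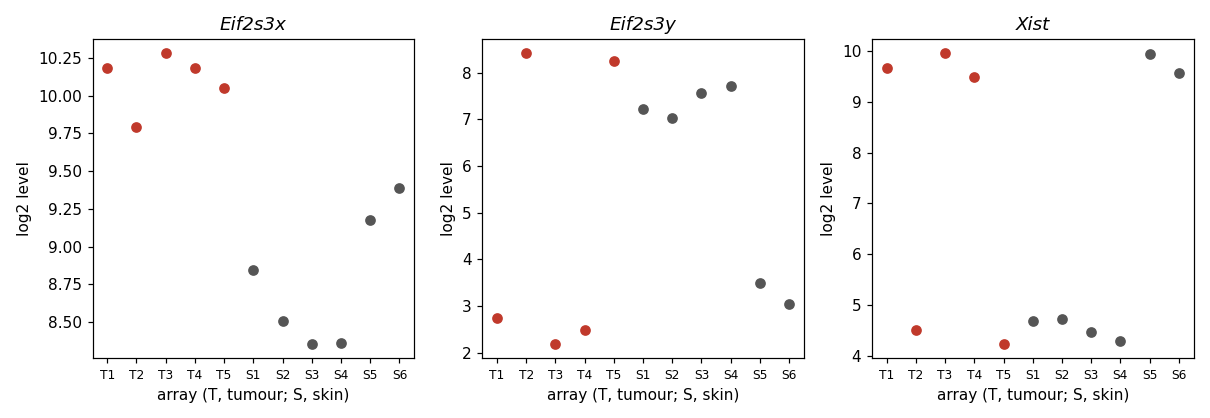
Log2 level of Eif2s3x, Eif2s3y and Xist on each of the 11 arrays, tumours in red and normal skins in grey. Eif2s3x separates the groups, with tumours from 9.79 to 10.28 and skins from 8.36 to 9.39, while Eif2s3y and Xist divide each group in opposite directions.

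eIF2B, the exchange factor that reactivates eIF2, had 4 of 5 subunit genes higher and none lower, with a class median of 0.76. Eif2b1, the alpha subunit, read 6.86, 7.05, 6.76, 6.90 and 7.33 in the tumours and a lowest of 6.02, a median of 6.2 and a highest of 6.48 in skin, a difference of 0.75 (SE 0.12, limma adjusted p = 0.000639) without overlap of the groups. Eif2b5, the catalytic epsilon subunit, read 7.15, 7.24, 7.13, 7.5 and 7.27 in the tumours and a lowest of 5.97, a median of 6.34 and a highest of 6.87 in skin, again without overlap and with a difference of 0.84 (SE 0.17, limma adjusted p = 0.00226). Eif2b2 and Eif2b3, the beta and gamma subunits, were higher by 0.77 and 0.76, though tumour and skin values overlapped (limma adjusted p = 0.0128 and 0.0167). Only 1 of 12 Eif2b3 probesets was higher on its own, and Eif2b3 missed the threshold with a replicate block (0.74, limma adjusted p = 0.0532). The delta subunit Eif2b4 had a difference of -0.01 (95% interval -0.31 to 0.29).

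Of the 4 kinases that phosphorylate eIF2alpha, 1 was higher, and it had the smallest adjusted p of all 56 genes. Eif2ak2 encodes PKR, the kinase activated by double-stranded RNA and induced by interferon. It read 7.86, 8.27, 8.16, 8.05 and 7.93 in the tumours, against a lowest of 6.15, a median of 6.38 and a highest of 6.69 in normal skin. The groups lay far apart, with a difference of 1.66 (SE 0.13, limma adjusted p = 1.78e-06), a fold of 3.17, and 16 of its 17 probesets were higher on their own. The other kinases were not called. Eif2ak1, the haem-regulated kinase, differed by 0.24 (95% interval -0.07 to 0.55), Eif2ak3, the kinase PERK of the endoplasmic reticulum, by -0.12 (-0.40 to 0.16), and Eif2ak4, the amino acid sensor GCN2, by -0.10 (-0.36 to 0.15). Without skin 2, which had the highest Eif2ak1 level of all arrays at 7.51, Eif2ak1 was called higher (log2 0.35, limma adjusted p = 0.0267), and so it was on all arrays with the mean over probesets (0.36, limma adjusted p = 0.00421).

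Genes listed for the integrated stress response around eIF2 were called in both directions. Of the 17 listed 16 were measured, with 6 (37.5%) higher, 3 (18.8%) lower and a median of 0.18. Over all genes 14.5% were higher and 10.8% lower. Asns, asparagine synthetase, was higher by 1.36 (limma adjusted p = 0.000124), and Psat1, an enzyme of serine synthesis, by 0.94 (limma adjusted p = 0.00165). Ppp1r15b, which directs a phosphatase to eIF2alpha, was higher by 0.82 (limma adjusted p = 0.000124). Ppp1r3c was lower by 1.51 on the log2 scale (limma adjusted p = 0.00201), but it encodes a glycogen-targeting phosphatase subunit rather than one directed to eIF2alpha. Chac1 was lower by 0.69 on the log2 scale (limma adjusted p = 0.0244) and Atf4 higher by 0.62 (limma adjusted p = 0.00306), both named after their values were seen. The part of the tissue markers in these differences was not tested.

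Genes of start codon selection and subunit joining were mostly higher too. Of 7 genes of the eIF1, eIF1A, eIF5, eIF5B and eIF6 class, 6 were higher and none was lower, with a median of 0.58. The largest difference was that of Eif1ad, which encodes a protein with an eIF1A-like domain and is no core factor. It read 7.88, 8.34, 8.23, 8.04 and 8.43 in the tumours and a lowest of 6.2, a median of 6.72 and a highest of 6.92 in skin, a difference of 1.51 (SE 0.15, limma adjusted p = 1.5e-05) without overlap. Eif6, which binds the large ribosomal subunit and keeps it from joining early, read 7.56, 8.24, 7.76, 7.95 and 8.15 in the tumours and a lowest of 5.98, a median of 6.63 and a highest of 7.17 in skin. Its groups did not overlap either, and the difference was 1.27 (SE 0.19, limma adjusted p = 0.000409).

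The factors of the scanning complex itself moved by less. Eif1a was higher by 0.65 (SE 0.15, limma adjusted p = 0.00564) and Eif1ay, the array's name for the gene now called Eif1ax, by 0.58 (SE 0.16, limma adjusted p = 0.0149), and both encode eIF1A. Eif5, which triggers GTP hydrolysis by eIF2, was higher by 0.56 (SE 0.16, limma adjusted p = 0.0206), with tumour 4 at 9.61 inside the range of the skins, and it missed the threshold without tumour 1, 2 or 3 (log2 0.50, 0.53 and 0.52). Eif5b, the GTPase that joins the subunits, was higher by 0.54 (SE 0.11, limma adjusted p = 0.00278). Eif1b differed by -0.02 (95% interval -0.35 to 0.31), with tumours at 7.22 to 7.55 within the skins' range of 7.10 to 7.99.

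All 13 eIF3 genes had differences above 0 (Eif3j fell to -0.16 when gene levels were quantile normalized), and 8 were called higher with none lower, for a class median of 0.63. eIF3 is the many-subunit scaffold that ties the small ribosomal subunit to eIF4G. Eif3b, a core subunit, read 8.74, 8.74, 8.49, 8.70 and 8.65 in the tumours and a lowest of 7.10, a median of 7.43 and a highest of 8.09 in skin. The groups did not overlap, with a difference of 1.16 (SE 0.16, limma adjusted p = 0.000226) and 17 of 19 probesets higher. Eif3l read 8.07, 8.74, 8.54, 8.49 and 9.19 in the tumours and a lowest of 7.20, a median of 7.31 and a highest of 7.62 in skin, a difference of 1.23 (SE 0.17, limma adjusted p = 0.000242) without overlap, with tumour 5 highest and tumour 1 lowest of the tumours.

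The other called eIF3 subunits were Eif3d (1.02), Eif3c (0.91), Eif3k (0.80), Eif3g (0.75), Eif3a (0.63) and Eif3f (0.57), all with tumours above all skins. For Eif3f 1 of 8 probesets was higher on its own, and it missed the threshold without tumour 4 and skins 1 and 3 (0.42, limma adjusted p = 0.057). Not called were Eif3e (log2 0.52, limma adjusted p = 0.06), Eif3m (0.37), Eif3i (0.29), Eif3h (0.28) and Eif3j (0.04), each with overlapping groups. Eif3e passed the threshold without skin 5 (0.58) or skin 6 (0.62), and Eif3m without tumour 1 (0.48). With the mean over probesets 3 of them were called higher, Eif3i by 0.60 (limma adjusted p = 0.000362), Eif3m by 0.46 (0.0132) and Eif3e by 0.44 (0.0296). Eif3i also passed without skins 1 and 3 together (0.46, limma adjusted p = 0.0159). Summed up as a mean over the 13 genes, the level was 9.68 to 9.98 in the tumours and 8.90 to 9.30 in skin, with no overlap. Eif3j, the array's name for the gene now called Eif3j1, had probesets in both directions, 2 of 12 higher and 1 lower. Whether all 12 read the same locus was not tested.

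The eIF4 group, which recruits the mRNA, was more mixed, with 5 of 12 genes higher, 1 lower and a median of 0.36. The clearest contrast lay between the paralogous helicases. Eif4a1 read 10.42, 10.41, 10.45, 10.30 and 10.53 in the tumours and a lowest of 9.02, a median of 9.47 and a highest of 9.89 in skin, without overlap and with a difference of 0.95 (SE 0.14, limma adjusted p = 0.000275), and 11 of its 12 probesets were higher. Eif4a2 read 9.81, 9.60, 9.82, 9.78 and 9.74 in the tumours and a lowest of 9.86, a median of 10.24 and a highest of 10.45 in skin, so that all tumours lay below all skins and the difference was -0.43 (SE 0.11, limma adjusted p = 0.0123). This second difference depended on how probesets were summarised. Only 1 of 7 Eif4a2 probesets was lower on its own (number 10434734, by 0.74 on the log2 scale), the median of the 7 probeset differences was -0.03, and with the mean in place of the median of probesets the gene's difference was -0.06 (limma adjusted p = 0.707). Eif4a3, a helicase of the exon junction complex rather than of cap recognition, read 9.0, 8.80, 9.84, 9.18 and 9.16 in the tumours and a lowest of 7.70, a median of 8.18 and a highest of 8.50 in skin, higher by 1.09 (SE 0.19, limma adjusted p = 0.000891) without overlap.

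Eif4e, the cap-binding protein, read 8.61, 8.74, 8.49, 8.46 and 8.70 in the tumours and a lowest of 7.88, a median of 8.13 and a highest of 8.57 in skin. Tumours 3 and 4 fell below the highest skin, and the difference was 0.41 (SE 0.12, limma adjusted p = 0.0279). This call too rested on the summary, since 1 of 6 Eif4e probesets was higher on its own, and the mean over probesets gave 0.13 (limma adjusted p = 0.243). It also missed the threshold without tumour 1, 2 or 5 or skin 3, 4 or 6 (0.35 to 0.41). The scaffold Eif4g1 was higher by 0.48 (SE 0.12, limma adjusted p = 0.0106) and the helicase partner Eif4b by 0.51 (SE 0.13, limma adjusted p = 0.0107). Both fell below the threshold with quantile normalization of gene levels (0.20 and 0.21, limma adjusted p = 0.288 and 0.268). Not called were Eif4g2 (0.32), Eif4g3 (0.22), Eif4h (0.40) and the cap-binding relatives Eif4e2 (0.08), Eif4e3 (-0.42) and Eif4e1b (-0.29). Of these, Eif4g2 passed without skin 5 (0.37), Eif4h without skin 1 (0.51), and Eif4e3 in the lower direction without skin 1 (-0.62), whose Eif4e3 level of 7.29 was the lowest of all 11 arrays. With the mean over probesets Eif4e2 was called higher by 0.44 (limma adjusted p = 0.00261), with 6 of its 13 probesets higher and none lower, and Eif4g2 by 0.45 (limma adjusted p = 0.00648).

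**Figure D4:**
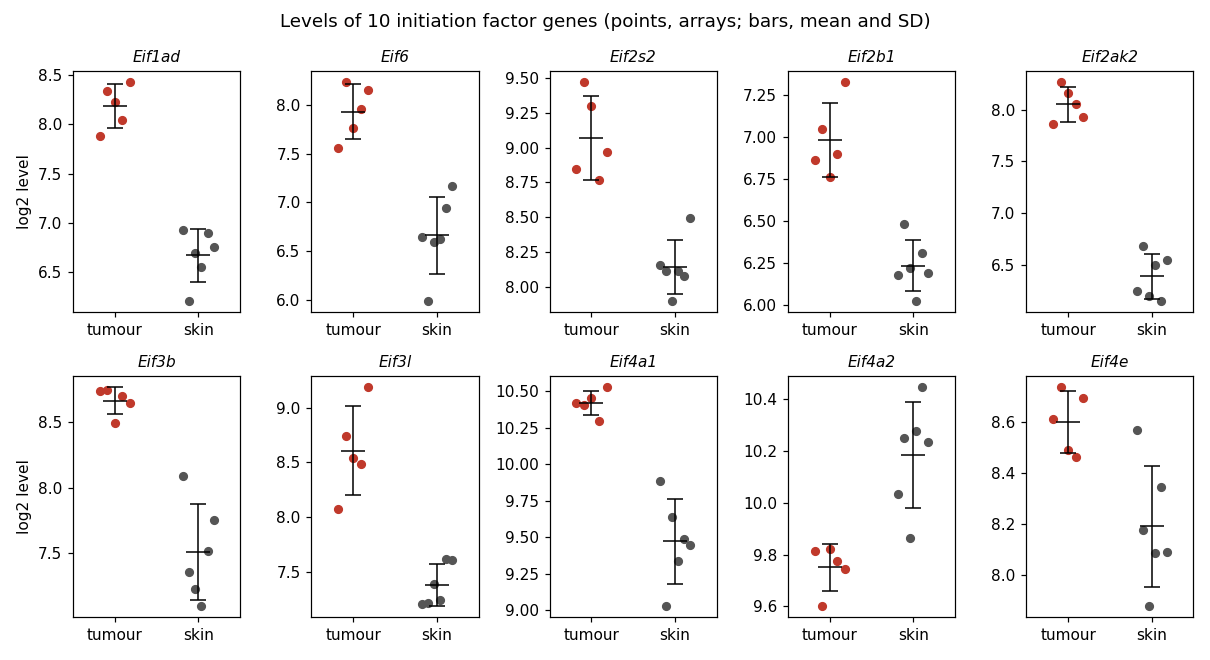
Log2 level of 10 initiation factor genes on the 5 tumour arrays (red) and 6 normal skin arrays (grey), with the mean and SD in black and a separate scale for each gene. In 9 of them, all but Eif4e, the groups do not overlap, and Eif4a2 is the gene whose tumours, at 9.60 to 9.82, lie below the skins. Most of the 10 were picked for a small adjusted p, so this count does not describe the set. Of all 56 genes, 24 (42.9%) had all tumours above all skins and 1 had all below, against 9.66% and 6.31% of all genes.

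The promoters of the eIF4F genes are printed because the cap-binding complex held both called directions. RefSeq promoter windows, running from 250 bases before to 50 bases after a transcription start, were at hand for 44 of the 56 genes. They were searched on both strands for the E-box CACGTG, the core site of MYC and related factors, and for TGATGNAA, a form of the ATF4 site; neither motif contains the other. The 250 bases before the start follow for the scaffold, the cap binder and both helicases, in GRCm38.p6, on the gene's strand, with E-boxes in capitals. They lie at chr3:138527018-138527267 (plus strand) for Eif4e, at chr11:69672424-69672673 (minus) for Eif4a1, at chr16:20672477-20672726 (plus) for Eif4g1 and at chr16:23107218-23107467 (plus) for Eif4a2.
Eif4e: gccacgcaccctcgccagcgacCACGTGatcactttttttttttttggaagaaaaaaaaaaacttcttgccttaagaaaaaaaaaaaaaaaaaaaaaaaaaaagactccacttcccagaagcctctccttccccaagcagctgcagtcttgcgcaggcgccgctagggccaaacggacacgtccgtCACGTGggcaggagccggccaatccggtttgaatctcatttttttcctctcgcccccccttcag
Eif4a1: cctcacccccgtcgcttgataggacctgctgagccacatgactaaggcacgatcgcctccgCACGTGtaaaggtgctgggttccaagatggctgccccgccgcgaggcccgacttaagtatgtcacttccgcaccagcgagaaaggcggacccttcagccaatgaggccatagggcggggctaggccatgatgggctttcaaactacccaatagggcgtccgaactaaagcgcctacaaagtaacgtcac
Eif4g1: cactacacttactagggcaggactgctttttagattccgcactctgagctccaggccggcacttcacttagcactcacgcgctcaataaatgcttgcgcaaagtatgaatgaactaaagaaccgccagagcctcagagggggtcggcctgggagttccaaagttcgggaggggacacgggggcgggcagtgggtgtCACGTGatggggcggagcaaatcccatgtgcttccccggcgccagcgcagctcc
Eif4a2: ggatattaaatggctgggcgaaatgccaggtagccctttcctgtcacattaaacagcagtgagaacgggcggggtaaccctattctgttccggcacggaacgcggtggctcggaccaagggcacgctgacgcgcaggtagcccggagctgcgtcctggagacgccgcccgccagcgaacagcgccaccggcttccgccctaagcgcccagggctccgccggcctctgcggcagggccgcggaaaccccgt

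In the Eif4e window E-boxes began 228 and 64 bases before the start, in Eif4a1 at 189 and in Eif4g1 at 54, and the Eif4a2 window held neither motif. Eif4g1 held a further E-box at position 16 after the start, which is not printed. A second RefSeq start of Eif4e, with a window at chr3:138525941-138526240, held no E-box. Across the 44 genes 10 (22.7%) held an E-box in at least 1 window, against 2187 of 27025 genes (8.09%) with such windows. The share did not separate the called genes, at 6 of 26 (23.1%) among those higher in the tumours and 4 of 18 (22.2%) among the others. The form TGATGNAA was in 1 of 44 genes (2.27%), Eif2s3x, against 4.51% of all genes. A match describes these letters only, and binding was not measured.

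Of the 4 genes whose products bind eIF4E, 1 was called. Eif4enif1, which encodes the transporter that carries eIF4E into the nucleus, read 7.52, 7.40, 7.58, 7.58 and 7.56 in the tumours and a lowest of 6.78, a median of 7.05 and a highest of 7.19 in skin. All tumours lay above all skins, by 0.49 (SE 0.10, limma adjusted p = 0.0026). Eif4ebp1, the repressor 4E-BP1, read 7.11, 6.86, 7.11, 6.84 and 7.19 in the tumours and a lowest of 6.73, a median of 6.83 and a highest of 7.09 in skin, with overlap and no call (log2 0.17, 95% interval -0.06 to 0.40, limma adjusted p = 0.264). Its relatives Eif4ebp2 and Eif4ebp3 differed by 0.14 (95% interval -0.12 to 0.40) and -0.03 (-0.43 to 0.37).

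Among 14 genes of mTORC1 and MNK signalling to eIF4, 4 (28.6%) were higher and none lower, with a median of 0.09, against 14.5% and 10.8% of all genes. They were Rps6, the ribosomal protein S6 (1.10, limma adjusted p = 0.000223), its kinases Rps6kb2 (0.69, 0.00295) and Rps6kb1 (0.68, 0.00354), and the phosphatase subunit Ppp2ca (0.48, 0.0101). Mtor itself was not called (0.13, limma adjusted p = 0.385), a gene named after its value was seen. Against the normal skins of double transgenic mice, 4 of the 14 were higher and 2 lower, beside 10.6% and 6.93% of all genes. There Deptor was higher (0.98, limma adjusted p = 0.0016) and Akt1s1 lower (-0.48, limma adjusted p = 0.0417). Neither was called against all 6 skins, and both were named after their values were seen.

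eIF5A, which relieves stalled ribosomes and carries the modified lysine hypusine, gave no call for either gene. Eif5a read 7.28, 7.05, 7.19, 6.99 and 6.57 in the tumours and a lowest of 6.41, a median of 6.81 and a highest of 7.12 in skin, with overlapping groups (log2 0.24, 95% interval -0.09 to 0.58, limma adjusted p = 0.279). Its 9 probesets differed in brightness. The brightest 3, numbered 10387734 to 10387736, were each higher in the tumours, with differences of 0.91, 1.30 and 2.10 (limma adjusted p over all probesets 0.00117, 0.000222 and 5.34e-05) at tumour means of 11.3, 10.4 and 9.45. The other 6, with tumour means of 4.55 to 7.27, were not called. The gene median lay among these less bright probesets, and with the mean over probesets Eif5a was higher by 0.61 (limma adjusted p = 0.00169). Eif5a2, the second eIF5A gene, read 5.59, 5.69, 5.81, 5.92 and 6.08 in the tumours and a lowest of 5.52, a median of 5.70 and a highest of 6.12 in skin, with overlap and no call (0.04, 95% interval -0.24 to 0.33).

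**Figure D5:**
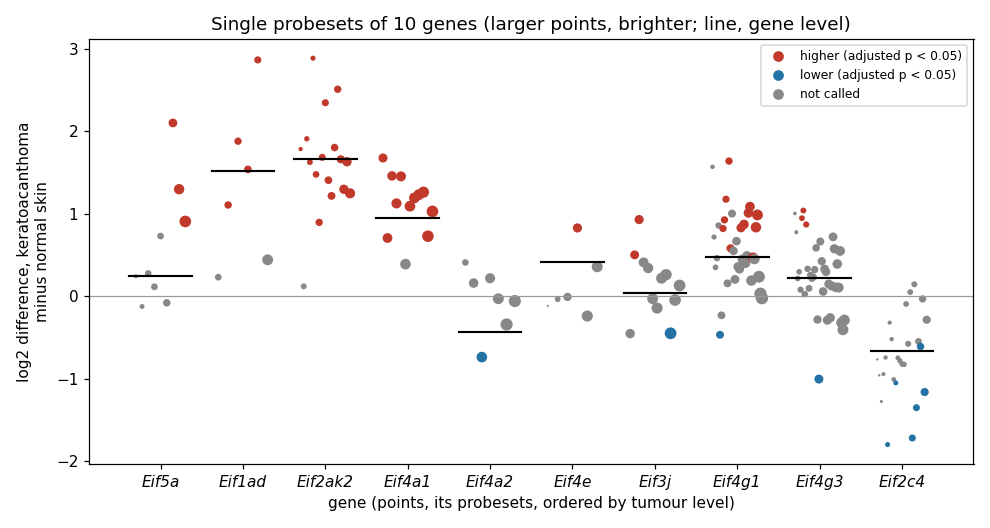
Log2 difference between keratoacanthoma and normal skin of the single probesets of 10 genes, ordered by tumour level from left to right within a gene, with larger points for brighter probesets and a black line at the difference of the gene level. For Eif5a the 3 brightest probesets are the called ones and the line lies at 0.24, and for Eif4a2 the line at -0.43 lies below 6 of the 7 points.

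Over all 741 probesets of these genes, 234 (31.6%) were higher and 18 (2.43%) lower, against 8.29% and 6.98% of all probesets. At least 1 probeset was higher in 39 of the 56 genes and at least 1 was lower in 11. Both directions occurred in 3 genes, Eif4g1, Eif4g3 and Eif3j. These counts by gene depend on how many probesets a gene had. Their share over all genes was not worked out, so they are a description only.

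The Argonautes, which bind small RNAs and share only the old symbol with initiation factors, moved in both directions. Eif2c2, now Ago2, read 7.12, 7.30, 7.09, 6.97 and 7.0 in the tumours and a lowest of 6.53, a median of 6.63 and a highest of 7.07 in skin, higher by 0.39 (SE 0.12, limma adjusted p = 0.0255) with overlapping groups. Eif2c4, now Ago4, read 5.35, 5.23, 5.40, 5.19 and 5.16 in the tumours, and the skins had a lowest of 5.37, a median of 5.99 and a highest of 6.43. It was lower by 0.67 on the log2 scale (limma adjusted p = 0.0302), with the double transgenic skins 1 and 2 at 5.37 and 5.39, next to the tumours, and the single transgenic skins 3 to 6 at 5.72 to 6.43. Both calls depended on single arrays. Eif2c2 missed the threshold without tumour 1, 2 or 3 or skin 4 or 6 (log2 0.34 to 0.39), and Eif2c4 without tumour 2, 4 or 5 or skin 4, 5 or 6 (-0.66 to -0.57). Eif2c1 and Eif2c3, now Ago1 and Ago3, differed by -0.28 (95% interval -0.52 to -0.05) and 0.12 (-0.26 to 0.51) and were not called.

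Tumours were also compared with the 2 normal skins of the same genotype, which use the same 5 tumour arrays as the comparison above. There 27 of the 56 genes (48.2%) were higher and none was lower, against 10.6% and 6.93% of all genes, and the median was 0.54. Eif3e (0.92, limma adjusted p = 0.0106), Eif3h (0.54, 0.0376) and Eif4g2 (0.53, 0.0224) were called here and not against all 6 skins, and the difference between the comparisons was not tested. Eif2ak2 was higher by 1.59 (limma adjusted p = 0.00051) and Eif2s3x by 1.42 (limma adjusted p = 0.000481). Both reference skins were high in Eif2s3y and low in Xist, whereas the tumours were of both kinds. The part of this split in the differences was not tested. In turn 8 genes called against all 6 skins were not called here. They were Eif5b (0.42, limma adjusted p = 0.0666), Eif2b2 (0.78, 0.0967), Eif2b3 (0.65, 0.143), Eif4g1 (0.27, 0.22), Eif4e (0.23, 0.33), Eif2c2 (0.29, 0.242), Eif4a2 (-0.39, 0.0918) and Eif2c4 (-0.11, 0.705).

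Genotype among the normal skins gave no call. Between the 2 double and the 4 single transgenic skins limma called 0 of the 56 genes, where 0.0147% of all genes were called. At an unadjusted p below 0.05 there were 7 of 56, against 2068 of 20352, and the smallest adjusted p was 0.267, that of Eif2c4 (log2 -0.83, double minus single). The double transgenic skins and those with K14-Cre alone were all high in Eif2s3y and low in Xist. Those with Zmiz1 alone were the reverse, so this split ran along genotype, and its part was not tested.

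Spread differed between the groups in these genes and in genes at large. The median SD over the 56 genes was 0.16 among the 5 tumours and 0.29 among the 6 skins, against 0.19 and 0.26 over all genes. The SD was smaller in the tumours for 41 of 56 genes (73.2%) and for 70.3% of all genes. The mean over all 56 genes ran from 8.22 to 8.41 in the tumours and from 7.74 to 7.96 in the skins. Without tumour 4 and skins 1 and 3, the arrays high in hair follicle markers, 29 of the 56 genes were higher and 3 lower. Over all genes the counts were then 2646 and 2036.

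Other genes of translation were read from lists of their own. Of 17 further initiation and scanning genes, 9 (52.9%) were higher and 1 (5.88%) was lower, with a median of 0.44. Over all genes 14.5% were higher and 10.8% lower. Bzw1, an eIF5 mimic, was higher by 1.08 (limma adjusted p = 0.000564), Ddx3x, a scanning helicase, by 1.01 (0.00243), Abce1, which recycles ribosomes, by 1.19 (0.00334) and Mcts1, a reinitiation factor, by 0.55 (0.00437). The lower one, named after its value was seen, was Pdcd4, which encodes an inhibitor of eIF4A (log2 -0.67, limma adjusted p = 0.0381). Against the normal skins of double transgenic mice, 4 of the 17 (23.5%) were higher and 0 lower. Over all genes the shares there were 10.6% and 6.93%. Abce1 was not called in that comparison (1.14, limma adjusted p = 0.0558).

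Of 14 elongation and release genes, 9 (64.3%) were higher and 2 (14.3%) lower, with a median of 0.46, against 14.5% and 10.8% of all genes. Gspt1, a release factor, was higher by 1.23 (limma adjusted p = 0.000139), Eef1g, a subunit of the eEF1B exchange complex, by 1.16 (0.00015) and Eef1e1, a synthetase-complex protein, by 1.16 (0.000119). Eef1a2, the eEF1A form of skeletal muscle and nerve, was lower by 1.88 on the log2 scale (limma adjusted p = 6.12e-05), beside the fall of all 18 muscle markers given above; their part in it was not tested.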

How the data were processed

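Total RNA of 11 snap-frozen mouse tissue pieces was amplified by the SPIA method and read on whole-transcript arrays, per the labels' protocols. The deposited table held log2 intensities of 241576 probesets; the submitters' processing notes name RMA, Partek and mm9, with no versions, and RMA includes background correction and quantile normalization. The array medians (6.22 to 6.27) and the range of the values (0.994 to 15.2) fit a log2 scale. Arrays correlated over all probesets used at 0.938 to 0.956 between tumours, 0.88 to 0.946 between skins and 0.783 to 0.906 across groups. Scan dates and batches were not given.

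Probesets naming 1 gene (212097) were kept, 4475 naming several and 25004 naming none were not used, and 590 were left out because a probeset of that gene held identical values. The gene level was the median over probesets, without a filter. Symbols are those of the array annotation, with current names from RefSeq tables. Eif1 and Eif2d were not analysed here. Chromosome positions in mm9 were not used.

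Groups were compared in limma 3.58.1 (R 4.3.3; lmFit and eBayes) over all 20352 genes, with Benjamini-Hochberg adjustment over all genes and a threshold of 0.05, and 95% intervals. The number of arrays limits the precision. The same-genotype and genotype comparisons used a model of 4 groups. Probesets were tested over all 211507. The fit was tested on simulated data. Tables were made with pandas 2.3.3 and numpy 2.4.6 in Python 3.11.15, and plots with matplotlib 3.10.9.

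The genes and lists were chosen with earlier results of these data known. For chosen genes the value in every tumour is given, with the lowest, median and highest of the skins. They are the 2 called genes with the smallest adjusted p in each factor class. Called genes against their class's direction (up to 2 a class) were added, with Eif2s3x, Eif2s3y, Eif4e, Eif4ebp1, Eif5a and Eif5a2. For Eif2s3y every skin value is given as well. Of each other list up to 4 called genes are named by smallest adjusted p. Alternatives were the mean over probesets, removal of dim probesets or genes (below the 25th percentile), probesets of several genes added, quantile normalization or centring of gene levels, eBayes with trend and robust, array weights, a replicate block, each kind of normal skin alone as reference, skins 1 and 3 left out, and each array left out. Added after seeing the data were Xist as a covariate and tumour 4 with skins 1 and 3 left out.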

Additional observations from a re-analysis of the deposited data

Results flagged for a closer look

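Within a group of arrays 1 value stood apart from the rest by Dixon's test in 8 of 112 group tests, where chance marks about 1 in 20. Normal skin 2 accounts for 4 of the 8, with the lowest Eif1ay (9.71, the other skins 10.3 to 10.7) and the highest Eif2ak1 (7.51, others 6.75 to 6.92), Eif4ebp1 (7.09, others 6.73 to 6.86) and Eif4ebp2 (7.57, others 6.97 to 7.16). Normal skin 3 had the lowest Eif2c3 at 5.87, below 6.75 to 6.94 in the other skins. Tumour 1 had the lowest Eif1b (7.22, other tumours 7.46 to 7.55) and the highest Eif4ebp2 (7.56, others 7.21 to 7.24). Tumour 2 had the lowest Eif4e2 at 7.61, against 7.98 to 8.05 in the other tumours.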

How the results depend on the processing

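Of the 32 called genes, 19 kept their call and direction under all 25 alternatives and none changed direction, while 10 of the 24 uncalled genes were called under at least 1. The count called higher, 30 in the analysis reported, was 21 with quantile normalization of gene levels, 35 with the mean over probesets, and 27 to 32 on leaving out each array. The count called lower, 2, was 1 with the mean over probesets, quantile normalization or shared probesets added, 0 with the double transgenic skins alone as reference, and 1 to 3 on leaving out each array. It was 1 without tumour 2, 4 or 5 or skin 4, 5 or 6, and 3 without skin 1. Calls over all genes moved as well. The number higher, 2959 in the analysis reported, was 2408 with quantile normalization and 3667 with the mean over probesets. The number lower, 2200, was 1973 with quantile normalization, 3214 with the mean over probesets and 2199 with shared probesets added. On leaving out each array the number higher was 2406 to 2942 and the number lower 1612 to 2207.

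The title numbers did not pair the samples, since same-numbered deviations from the group means correlated at -0.18 to 0.10. A replicate block gave 28 higher and 0 lower, with 27 of the 30 kept, beside 2596 higher and 1716 lower over all genes.

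Over all genes 57.4% of calls were higher (2959 higher, 2200 lower), and centring the arrays on their medians made it 67.5% (3485 higher, 1677 lower). The double transgenic skins alone as reference gave 1942 higher and 1244 lower.

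Direction turned only for 9 uncalled genes, whose 95% intervals all included 0, and the cause was not tested. Eif2c3 (0.12) was -0.065 without skins 1 and 3, -0.078 without tumour 4 and skins 1 and 3 and -0.043 to 0.17 on leaving out each array. Eif1b (-0.018) was 0.043 with centring, 0.0001 with array weights and -0.094 to 0.083 on leaving out each array. Eif2s3y (-1.19) was 0.013 with Xist and 0.082 without tumour 4 and skins 1 and 3. Eif2b4 (-0.0053) was 0.048 with the mean over probesets, 0.032 with quantile normalization, 0.056 with centring, 0.058 with array weights, 0.14 against single transgenic skins, 0.078 without skins 1 and 3, 0.064 with Xist, 0.12 without tumour 4 and skins 1 and 3 and -0.079 to 0.070 on leaving out each array. Eif3j (0.039) was -0.16 with quantile normalization and -0.019 to 0.099 on leaving out each array. Eif4e1b (-0.29) was 0.0091 with the mean over probesets. Eif4e2 (0.083) was -0.12 with quantile normalization, while the mean over probesets called it higher at 0.44 (limma adjusted p = 0.00261). Eif5a2 (0.044) was -0.081 with the mean over probesets, -0.040 without dim probesets, -0.061 against single transgenic skins, -0.016 without skins 1 and 3, -0.041 without tumour 4 and skins 1 and 3 and -0.022 to 0.11 on leaving out each array. Eif4ebp3 (-0.030) was 0.067 with the mean over probesets, 0.031 with quantile normalization, 0.030 with centring, 0.058 with array weights, 0.12 against single transgenic skins, 0.016 without skins 1 and 3, 0.26 with shared probesets added and -0.12 to 0.090 on leaving out each array.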
